A study of Mus musculus with 12 samples.

Results

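Hearts that carried an Nkx2-5 allele with a single changed residue were compared with hearts that carried a deletion of the gene. The 6 arrays of the 2 substitution lines, I183M/+ (3 arrays) and I183P/+ (3 arrays), were set against the 3 arrays of the delta/+ line, and the control arrays were left out of the comparison, so that 9 of the series' 12 arrays entered it. The mean of the I183M arrays and the mean of the I183P arrays had equal weight. The comparison asks which transcripts separate an altered protein from a lost allele, since all 3 lines keep 1 + allele.

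All hearts came from adult male C57BL/6J mice at an age of 15 weeks, and total RNA of the apex was hybridised to single-colour Agilent arrays of 55681 probes. In the I183M/+ line the isoleucine at residue 183 of Nkx2-5 is replaced by methionine, and in the I183P/+ line by proline. In the delta/+ line the gene is fully deleted. The control/+ line is itself a knock-in, in which the isoleucine stays. The labels name no separate animals behind the replicate numbers, so the p-values below measure the spread between these samples, and the number of arrays limits their precision.

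Nkx2-5 is a homeodomain transcription factor of the cardiac lineage. It binds DNA through its homeodomain, acts together with Gata4, Tbx5 and Tbx20, and is known in mice and humans for a dose-sensitive role in septation, conduction and the working myocardium. A substitution within the homeodomain leaves an mRNA and a protein in place, while a deletion removes both from that allele.

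Of the 9 arrays, I183P replicate 3 was the only substitution array on slide 2, which also held the 3 delta arrays, and the other 5 substitution arrays and the controls were on slide 1. The slides were scanned on different days, so scan and slide cannot be told apart. Across probes I183P replicate 3 had its best rank correlation with delta replicate 1 (0.991). I183M replicate 1 and delta replicate 2 stood apart from the other 7 arrays in the share of spots well above background (72.8% and 75.2%, against 51.2% to 60.5%) and correlated best with each other (0.979). No spot was saturated. The 12 ventricular cardiomyocyte markers were all measured and had folds between -0.10 and 0.26 on the log2 scale, and Myl2, the ventricular regulatory light chain, lay between 18.69 and 18.82 (log2 intensity) on the 9 arrays.

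Of 26179 genes or unnamed features tested, 35 were higher in the substitution hearts (0.134%) and 38 were lower (0.145%) at a Benjamini-Hochberg adjusted p under 0.05 in limma. Pde5a, Slc49a4, Emilin3 and Nkx2-5 were among those that were higher, and Papola, Gm6787, Capn11 and 1 of the 4 probes of Casz1 were the symbols that were lower. Only 12 of the 73 had a gene symbol (8 higher, 4 lower), and 61 were unnamed transcripts or intervals. Folds are log2 differences of the substitution mean minus the delta mean. They ran from 0.43 to 2.97 in size, with a median of 1.25 among the features that were higher and -0.83 among those that were lower, while the median over all features tested was -0.01. In all 73 the 6 substitution arrays and the 3 delta arrays did not overlap and both lines lay on the same side of delta. Such groups without overlap were found in 8.03% of all features tested. The narrowest gap between the groups was 0.13 and the widest 2.08. At an unadjusted p under 0.05 there were 3922 features.

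**Figure D1:**
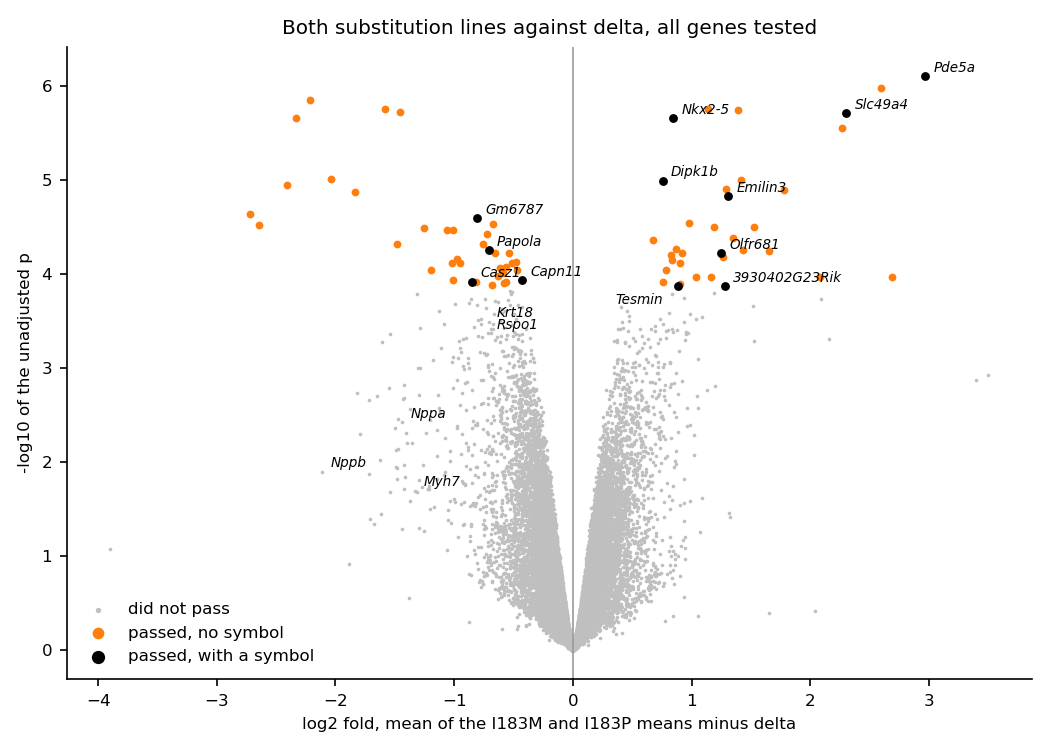
The horizontal axis gives the log2 fold of both substitution lines over delta and the vertical axis the negative log10 of the unadjusted limma p, with 1 point for each of the 26179 genes or features. Black and orange points are the 73 that passed the adjusted threshold (12 with a symbol, 61 without), and Nppa, Nppb, Myh7, Krt18 and Rspo1 are labelled among the grey points that did not.

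The count rests on which arrays are in the fit. It was 277 without I183P replicate 3 (71 higher, 206 lower), 1 without delta replicate 3, 12 without I183M replicate 3, 14 without I183P replicate 2, 15 without delta replicate 2, 18 without I183M replicate 2, 19 without I183P replicate 1, 37 without delta replicate 1 and 72 without I183M replicate 1. No feature passed when slide entered the model as a block, and none within slide 2 alone, with 1860 and 993 features at an unadjusted p under 0.05, against 3922 in the fit without a block.

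The targeted gene separated the lines in the direction the genotypes give. Nkx2-5 (chromosome 17) read 13.64, 13.73 and 13.65 log2 units on the I183M arrays and 13.80, 13.55 and 13.62 on the I183P arrays, against 12.75, 12.84 and 12.87 on the delta arrays. Every substitution array was above every delta array, and the controls (13.58, 13.51 and 13.56) were also above every delta array, with control replicate 2 below the lowest substitution array. The fold was 0.84 (SE 0.08, limma adjusted p = 0.00579, 95% confidence interval 0.67 to 1.02). Permuting the labels of the 6 and 3 arrays (exact test, two-sided) gave p = 0.0119, the smallest it can give. Expressed as a ratio, delta hearts held 0.557 of the Nkx2-5 signal of the substitution hearts (95% confidence interval 0.493 to 0.629). Within slide 2 the fold was 0.80 (limma adjusted p = 0.935), and the call was also lost without delta replicate 3 (fold 0.87, limma adjusted p = 0.0526).

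Among Nkx2-5 itself and its partners and other cardiac transcription factors, 22 of 26 genes were tested and Nkx2-5 was the 1 that passed. The median fold of that list was 0.11, with 15 members above 0, but 0.013 without delta replicate 3 and 0.04 within slide 2. Tbx5, the T-box partner of Nkx2-5, had a fold of 0.55 (SE 0.16, limma adjusted p = 0.183), with substitution arrays at 11.43 to 12.27 and delta arrays at 11.02 to 11.48. Its groups overlapped through I183M replicate 1. None of the 30 measured genes nearest to Nkx2-5 on chromosome 17 passed the test. Their folds ran from -0.48 to 0.38 with a median of -0.02, and 14 were above 0. Mrpl28, a mitochondrial ribosomal protein gene in that stretch, had a fold of 0.35 (limma adjusted p = 0.223).

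The largest fold that passed was that of Pde5a (chromosome 3), the cGMP-hydrolysing phosphodiesterase that sildenafil inhibits. Pde5a read 12.14, 12.78 and 12.07 log2 units on the I183M arrays, 12.28, 12.45 and 11.41 on the I183P arrays and 9.12, 9.33 and 9.22 on the delta arrays. The groups were separated by more than the range within either of them. Its fold was 2.97 (SE 0.24, limma adjusted p = 0.00579), a ratio of 7.81. The lowest substitution array was I183P replicate 3, and against the delta arrays on its own slide the fold was 2.19. The controls read 13.26, 13.18 and 13.16, above every substitution array. Of 23 cyclic nucleotide phosphodiesterase and cyclase genes tested, Pde5a was the 1 that passed, and the median fold of the list was 0.02 (0.02 to 0.08 without 1 array at a time). Pde4d, a cAMP-specific phosphodiesterase, had a fold of 0.37 (limma adjusted p = 0.251), which was 0.19 without delta replicate 3.

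Slc49a4 (chromosome 16), a transporter of the lysosomal membrane, followed the same order of groups. Its I183M arrays read 11.29, 11.87 and 11.20, its I183P arrays 11.27, 11.55 and 10.64 and its delta arrays 8.99, 9.02 and 8.99. The fold was 2.30 (SE 0.21, limma adjusted p = 0.00579), or 1.64 within slide 2. As for Pde5a, I183M replicate 2 was the highest array, I183P replicate 3 the lowest of the substitution arrays, and the controls (12.18, 12.19 and 12.22) were above them all.

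The promoter windows of the targeted gene and of the pair with the largest folds are printed as the DNA that an altered or missing Nkx2-5 could meet, the 250 bases before the annotated gene start on the gene's strand, from RefSeq with assembly GRCm38.p6. Capitals mark AAGTG or, read on the other strand, CACTT, the core of the element that the Nkx2-5 homeodomain is known to bind. The windows are chr17:26841566-26841815 (minus strand) for Nkx2-5, chr3:122728908-122729157 (plus strand) for Pde5a and chr16:35769371-35769620 (minus strand) for Slc49a4.
Nkx2-5: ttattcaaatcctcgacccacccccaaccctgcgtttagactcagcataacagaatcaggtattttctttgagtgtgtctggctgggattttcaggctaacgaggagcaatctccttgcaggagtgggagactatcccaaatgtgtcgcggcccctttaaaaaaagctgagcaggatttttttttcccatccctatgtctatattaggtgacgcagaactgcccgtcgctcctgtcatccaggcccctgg
Pde5a: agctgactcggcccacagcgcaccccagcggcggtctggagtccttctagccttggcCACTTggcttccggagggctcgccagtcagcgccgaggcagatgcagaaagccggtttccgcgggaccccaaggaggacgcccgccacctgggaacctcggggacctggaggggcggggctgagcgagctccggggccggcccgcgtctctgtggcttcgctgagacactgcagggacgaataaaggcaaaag
Slc49a4: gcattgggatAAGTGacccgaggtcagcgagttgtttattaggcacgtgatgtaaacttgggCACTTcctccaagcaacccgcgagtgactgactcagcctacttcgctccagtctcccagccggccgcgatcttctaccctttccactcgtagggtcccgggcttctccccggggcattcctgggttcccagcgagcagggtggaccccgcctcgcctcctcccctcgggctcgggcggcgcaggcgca
The letters AAGTG on either strand were found in 40.7% of 32851 such windows. Among the 12 genes with a symbol that passed, 10 had a window (12 windows in all), and 3 of those genes, Pde5a, Slc49a4 and Olfr681, held the letters. The longer form TNAAGTG, which contains AAGTG, was in 0 of the 12 windows and in 10.1% of all windows. A match is a description of letters and not a binding site, and no match says only that these letters are not in this window.

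**Figure D2:**
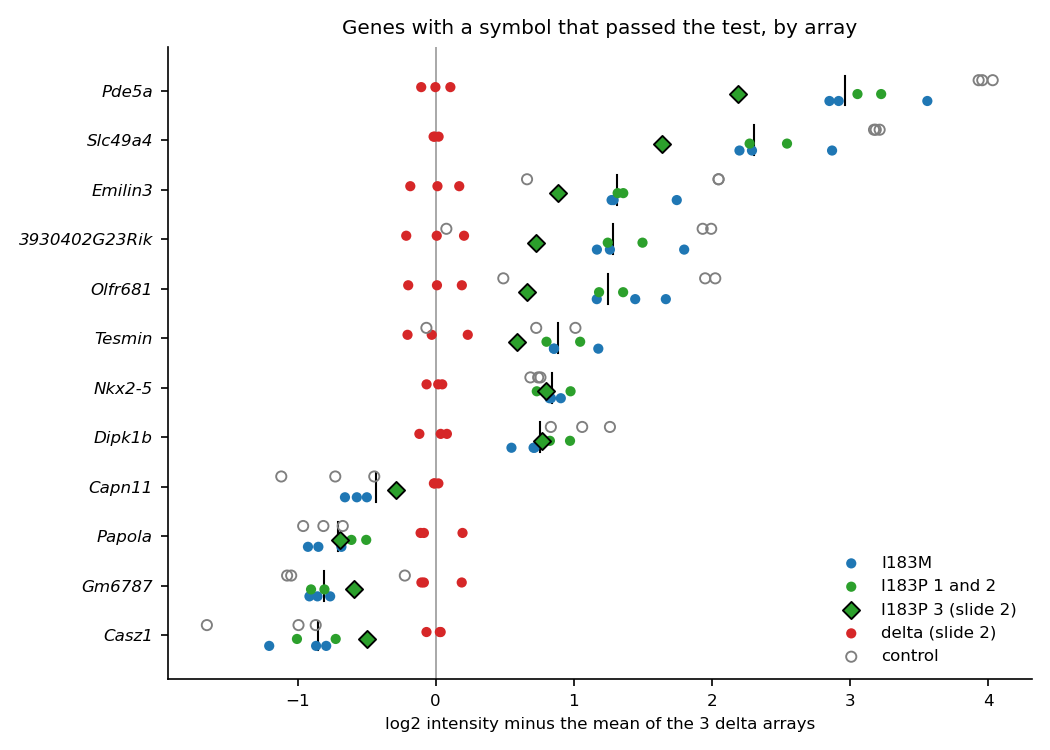
Each point is 1 array's log2 intensity minus the mean of the 3 delta arrays for the 12 genes with a symbol that passed, and the black tick is the fold of the equally weighted substitution means. The diamond is I183P replicate 3, on the slide of the delta arrays: it is the lowest substitution array for Pde5a, Slc49a4, Emilin3, 3930402G23Rik, Olfr681 and Tesmin, and lies among the others for Nkx2-5.

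Dipk1b (chromosome 2), which encodes a kinase-like protein of the endoplasmic reticulum, read 11.18, 11.02 and 11.19 in I183M, 11.30, 11.44 and 11.24 in I183P and 10.55, 10.51 and 10.35 in delta hearts. Its fold of 0.76 (SE 0.08, limma adjusted p = 0.019) was 0.77 within slide 2, so that I183P replicate 3 was no nearer to delta than the other arrays. Emilin3 (chromosome 2), an extracellular matrix glycoprotein of the EMILIN family, had a fold of 1.31 (SE 0.15, limma adjusted p = 0.0204), with substitution arrays at 7.56 to 8.42 and delta arrays at 6.49 to 6.84. Within slide 2 its fold was 0.88.

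The other symbols that were higher lay near the dim end of the arrays. So did Emilin3, which had the lowest delta mean of the symbols that were higher (6.67). 3930402G23Rik (chromosome 8), an RNA gene of unknown role, had a fold of 1.28 (SE 0.20, limma adjusted p = 0.0485). Olfr681 (chromosome 7), an odorant receptor gene, had a fold of 1.25 (SE 0.17, limma adjusted p = 0.0374), but its second probe, well above background on 3 of the 9 arrays, had a fold of 0.20. Tesmin (chromosome 19), named for its expression in testis, had a fold of 0.89 (SE 0.14, limma adjusted p = 0.0482), and its second probe, above background on 0 of 9 arrays, had a fold of 0.06. Within slide 2 the folds of these 3 were 0.72, 0.66 and 0.59. Of the 23 alternatives tried, 18 ended the call of 3930402G23Rik, 17 that of Olfr681 and 20 that of Tesmin. The calls of the other symbols that were higher ended in 4 of the 23 for Pde5a, 4 for Slc49a4, 6 for Nkx2-5, 11 for Emilin3 and 12 for Dipk1b.

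Among the genes that were lower in substitution hearts, Casz1 (chromosome 4) encodes a zinc finger transcription factor needed for heart development. Its probe read 10.81, 10.40 and 10.74 in I183M, 10.60, 10.88 and 11.11 in I183P and 11.64, 11.64 and 11.54 in delta hearts, a fold of -0.85 (SE 0.13, limma adjusted p = 0.0467). Its other 3 probes had folds of 0.39, 0.30 and 0.53, so the probes of the gene disagree in direction and no direction is given for Casz1 as a whole. Within slide 2 the fold of the first probe was -0.50.

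Papola (chromosome 12), the nuclear poly(A) polymerase, read 10.29, 10.53 and 10.36 in I183M, 10.71, 10.60 and 10.52 in I183P and 11.13, 11.41 and 11.10 in delta hearts. Its fold was -0.71 (SE 0.10, limma adjusted p = 0.0374), and -0.69 within slide 2. Gm6787 (chromosome X), an RNA gene of unknown role, had a fold of -0.81 (SE 0.10, limma adjusted p = 0.0308) with substitution arrays at 7.56 to 7.88 and delta arrays at 8.37 to 8.66. Capn11 (chromosome 17), a calpain protease, had the smallest fold that passed, -0.43 (SE 0.07, limma adjusted p = 0.0467). Its I183P arrays (11.01, 11.03 and 11.01) lay between the I183M arrays (10.65 to 10.81) and the delta arrays (11.29 to 11.32). Of the 23 alternatives, 16 ended the call of Gm6787, 17 that of Papola, 19 that of Casz1 and 19 that of Capn11. Pdcl3, a phosducin-like protein that assists protein folding, was the symbol next in line and did not pass, at -0.52 (limma adjusted p = 0.0541).

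Most of what passed has no gene name in the files or the RefSeq table. Of the 61 unnamed features, 27 were higher and 34 lower. Intervals of the array's mm9 layout made up 15 of them (11 higher, 4 lower) of 3547 such intervals tested, while 0.279% of all features passed. Ensembl transcripts made up 13 (2 higher, 11 lower). The number of Ensembl transcripts tested is not given, so no share is stated for them. Whether either split by direction differs from that of other features was not tested. The interval chr13:70745633-70776516 read 10.94, 11.43 and 10.79 in I183M, 10.78, 11.12 and 10.10 in I183P and 8.30, 8.21 and 8.28 in delta hearts, a fold of 2.60 (SE 0.22, limma adjusted p = 0.00579). I183P replicate 3 was again the lowest substitution array, and the fold within slide 2 was 1.84.

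The interval chr4:35106125-35127700 had the reverse order within its I183P arrays. It read 10.08, 9.32 and 9.75 in I183M, 10.08, 10.63 and 11.06 in I183P and 8.47, 7.47 and 6.46 in delta hearts, where I183P replicate 3 was the highest of the 9 arrays. Its fold was 2.69 (SE 0.40, limma adjusted p = 0.0457), and 3.59 within slide 2. The largest folds in the other direction were those of ENSMUST00000099042 (-2.72, limma adjusted p = 0.0299) and ENSMUST00000099046 (-2.64, limma adjusted p = 0.0308). The first read 6.82, 8.08 and 7.60 in I183M, 7.40, 8.57 and 8.67 in I183P and 10.38, 10.59 and 10.77 in delta hearts. ENSMUST00000099035 (-2.41) and ENSMUST00000099050 (-2.04), close to them in number, also passed. In each of these transcripts I183M replicate 1 was the lowest of the 9 arrays. Whether they are separate signals was not tested.

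Because I183P replicate 3 shares its slide with the delta arrays, its position was read for every feature that passed. Of the 6 substitution arrays it was the nearest to delta for 39 of the 73 features (16 of the 35 that were higher and 23 of the 38 that were lower), and the next was I183P replicate 2 with 13. The difference of I183P replicate 3 from the delta arrays was a median of 0.699 of the difference of the 5 slide 1 substitution arrays from delta (range 0.373 to 1.49). It was a median of 0.947 for features that were higher and 0.674 for those that were lower, and under 0.5 for 10 features.

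A reading that did not use I183P replicate 3 gave a lower position, on a different set of features. The fit without this array had all its substitution arrays on slide 1 and all its delta arrays on slide 2. Its calls therefore cannot tell slide and genotype apart. The 277 features called without I183P replicate 3 were read on that array. The scale has 0 at the mean of the delta arrays and 1 at the mean of the other 5 substitution arrays. The held-out array lay nearer the substitution mean for 111 and nearer the delta mean for 166, with a median position of 0.422. For the 71 features that were higher without it the median was 0.783, and for the 206 that were lower it was 0.333. It lay outside the range of the delta arrays on the substitution side for 225 of the 277. Delta replicate 1, held out in the same way, lay outside the range of the remaining delta arrays for 31 of its 37 features. For delta replicate 2 this held for 6 of 15. The features were called with those delta arrays, so this count cannot tell which group a held-out array is like.

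The other substitution arrays, all on slide 1, had median positions of 0.917 to 1.06 on the 12 to 72 features called without each of them. I183M replicate 1 was nearer the substitution mean for 58 of its 72. Delta replicate 1 had a median position of 0.281 on 37 features and delta replicate 2 one of 0.0432 on 15. Slide and genotype share this split for every array but I183P replicate 3, and for the 5 slide 1 arrays they cannot be told apart.

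**Figure D3:**
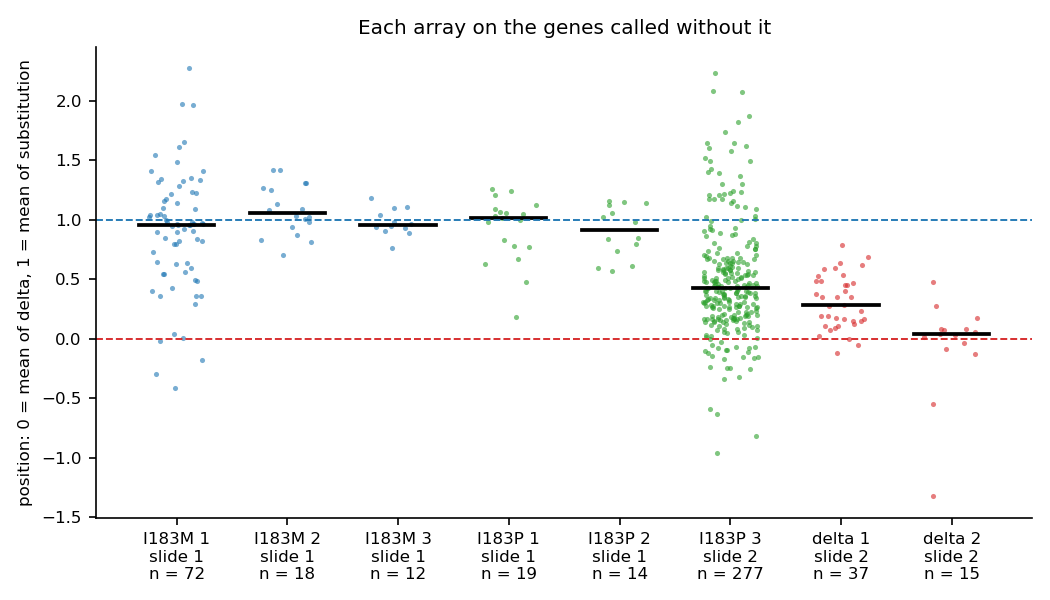
Each point is 1 feature called in a fit that left out the array named below it, placed by that array's value, with 0 at the delta mean and 1 at the substitution mean of the remaining arrays. The black bar is the median: 0.422 on 277 features for I183P replicate 3 on slide 2, and 0.917 to 1.06 for the 5 substitution arrays on slide 1. Those 5 were read on other sets of 12 to 72 features, so the medians are not of the same features. Delta replicate 3, with 1 feature, is not drawn.

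The control arrays, which entered neither normalization nor fit, were mapped onto the same quantiles for description. All were on slide 1, like the substitution arrays other than I183P replicate 3 and unlike the delta arrays. Their nearness to either group on the called features therefore cannot tell slide from genotype. The share over all features is not given. The mean of control replicates 2 and 3 was nearer the substitution mean than the delta mean for 71 of the 73 features, and lay beyond the substitution mean for 52 of them (30 higher, 22 lower), with a median position of 1.17. Control replicate 1, on which 99.1% of spots were well above background, was nearer the substitution mean for 52 and nearer the delta mean for 21.

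Against delta alone, 73 features passed for I183M (0.279%; 30 higher, 43 lower) and 11 for I183P (0.042%; 8 higher, 3 lower). All I183M arrays were on slide 1, while I183P replicate 3 shared slide 2 with the delta arrays. Slide and line therefore cannot be told apart in these 2 counts. Of the 73 features of the pooled comparison, 57 also passed for I183M and 11 for I183P, and these comparisons share the delta arrays. The direct test of I183P minus I183M called 0 features in limma (0%), with 2575 at an unadjusted p under 0.05. With weights for array quality it called 1524. For Pde5a the 2 lines differed by -0.29 (95% confidence interval -0.92 to 0.34) and for Nkx2-5 by -0.02 (-0.22 to 0.18).

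Apart from Nkx2-5 and Pde5a, no member of the 40 gene lists (768 genes tested) passed, against 0.279% of all features tested. All list members have a symbol, and of the 15700 genes tested with a symbol 12 passed. The lists are therefore described by their medians and by how many members had groups that did not overlap. Over all features tested, 3.37% were higher in all 6 substitution arrays than in any delta array, and 4.66% were lower.

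The natriuretic peptide and stress genes had the lowest median fold of the lists, -0.43, with 4 of 17 members above 0 and 0 passing. Nppa, the atrial natriuretic peptide, read 14.49, 13.08 and 13.36 in I183M, 14.89, 14.33 and 14.35 in I183P and 16.24, 14.84 and 15.48 in delta hearts. Only I183P replicate 1 reached above the lowest delta array. Its fold was -1.44 (SE 0.37, limma adjusted p = 0.141), and -1.17 within slide 2. The controls, at 15.48, 15.80 and 15.62, lay among the delta arrays.

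Nppb, the B-type natriuretic peptide of strained ventricle, read 13.98, 11.08 and 11.18 in I183M, 11.43, 11.40 and 12.88 in I183P and 13.58, 13.79 and 14.94 in delta hearts. The fold was -2.11 (SE 0.67, limma adjusted p = 0.212). I183M replicate 1 was above 2 of the delta arrays and I183P replicate 3 was next below it, and within slide 2 the fold was -1.22. Myh7, the slow myosin heavy chain that adult mouse ventricle re-expresses under load, had a fold of -1.33 (SE 0.47, limma adjusted p = 0.247). Its delta arrays read 15.41, 15.54 and 17.26 and its substitution arrays 13.82 to 15.52, so that without delta replicate 3 the fold was -0.74. Myh7b, a slow-twitch myosin heavy chain, had groups that did not overlap (15.56 to 16.01 against 16.08 to 16.47) and a fold of -0.48 (limma adjusted p = 0.131). Without delta replicate 3 the median of the list was -0.15, without I183P replicate 3 it was -0.27, and within slide 2 it was -0.22.

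Atrial muscle genes varied widely between arrays of the same line. The median fold of the 11 tested was -0.23, with 2 above 0. Myl7, the atrial regulatory light chain, read 11.18, 9.67 and 10.34 in I183M, 11.77, 11.69 and 6.48 in I183P and 13.12, 9.13 and 10.93 in delta hearts. I183P replicate 3 was the lowest of the 9 arrays and delta replicate 1 the highest, and Sln (8.43 and 14.59) and Myl4 (10.36 and 15.92) had the same extremes. Within slide 2 the list median was -1.17, without delta replicate 1 it was 0.16, and without I183P replicate 3 it was -0.02. Nppa is a member of this list too, and the part of atrial tissue in its fold was not tested. In bulk samples fewer cells of a type and less RNA per cell cannot be told apart.

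Mesothelial and epicardial markers had a median fold of -0.34, with 1 of 11 above 0, 3 with groups that did not overlap and 0 passing. Krt18, an epithelial keratin, read 8.78, 8.50 and 8.46 in I183M, 8.38, 8.10 and 8.47 in I183P and 9.19, 9.33 and 8.95 in delta hearts. All substitution arrays were below all delta arrays, with a fold of -0.71 (SE 0.12, limma adjusted p = 0.072) and of -0.69 within slide 2. Msln, mesothelin of the serosal surface, ranged from 7.20 to 9.18 in substitution and from 9.36 to 10.37 in delta hearts, with a fold of -1.48 (limma adjusted p = 0.226). Lrrn4, 1 of the 3 without overlap, was not well above background on any substitution array and was at least 1.31-fold higher in delta hearts. It was kept for testing only through the delta arrays, where it is high, so its separation adds no support to the list. Wt1, a transcription factor of the epicardium, had a fold of -0.21 (limma adjusted p = 0.426). The log2 of the summed intensity of the list was 13.21 to 13.45 on substitution and 13.49 to 13.55 on delta arrays. Within slide 2 the list median was -0.38, and over the fits without 1 array it ran from -0.49 to -0.24.

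**Figure D4:**
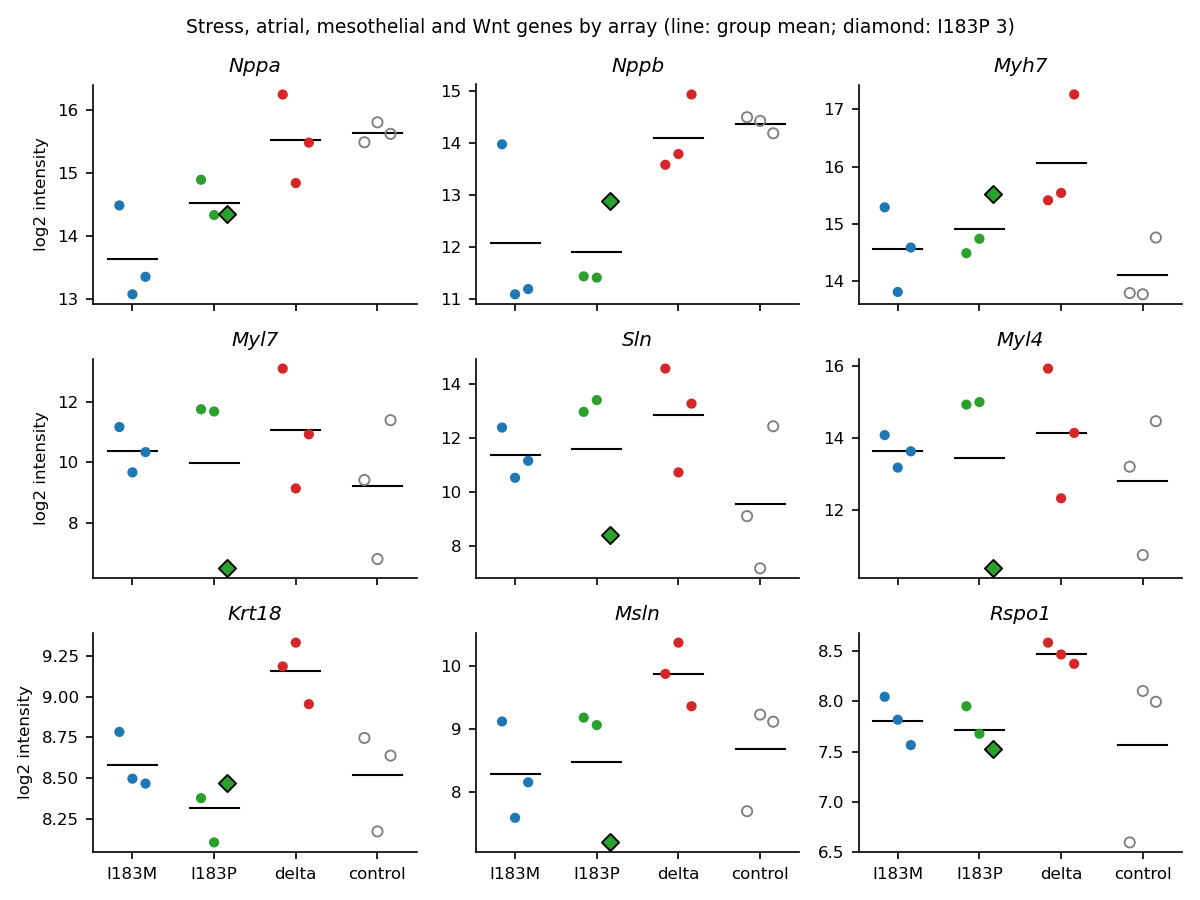
Panels give the log2 intensity of each array by group (points, with the group mean as a line) for stress genes in the top row, atrial genes in the middle row and mesothelial and Wnt genes in the bottom row. The diamond, I183P replicate 3, is the lowest point among the 9 arrays for Myl7, Sln and Myl4, and Krt18, Msln and Rspo1 keep all delta arrays above all substitution arrays.

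Wnt pathway genes had a median fold of 0.09 (18 of 25 above 0), which was -0.0029 without delta replicate 2, 0.16 without delta replicate 1 and 0.0029 within slide 2. Rspo1, a secreted amplifier of Wnt signalling, read 8.05, 7.82 and 7.56 in I183M, 7.95, 7.68 and 7.53 in I183P and 8.58, 8.47 and 8.37 in delta hearts. It had a fold of -0.71 (SE 0.13, limma adjusted p = 0.0764), and -0.95 within slide 2, where the substitution array is farther from delta than the other arrays are. The ligand Wnt9a (0.43, limma adjusted p = 0.107) and the receptor Fzd4 (0.39, limma adjusted p = 0.109) had folds above 0 with groups that did not overlap. Nog, the secreted BMP antagonist noggin, had a fold of -0.50 (limma adjusted p = 0.135). It was the 1 member of 26 BMP and TGF-beta genes that did not overlap, beside 4.66% of all features that were lower without overlap.

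Among 25 sodium and potassium channel genes the median fold was 0.07 (0.06 to 0.10 without 1 array at a time). Kcnh2 alone did not overlap, beside 3.37% of all features that were higher without overlap. Kcnh2, the channel of the rapid delayed rectifier current, ranged from 10.62 to 11.10 in substitution and from 10.24 to 10.50 in delta hearts, with a fold of 0.54 (SE 0.12, limma adjusted p = 0.116) and of 0.44 within slide 2. Kcnd3, a channel of the transient outward current, had a fold of 0.52 (limma adjusted p = 0.214), which was 0.30 without delta replicate 3. Calcium cycling genes (25 tested, median 0.07, or -0.0029 without delta replicate 3) and conduction and gap junction genes (18 tested, median -0.0033, or -0.05 to 0.05 without 1 array at a time) had no member whose groups did not overlap. Among 29 sarcomere and Z-disc genes the median was -0.01, and Ttn, the giant elastic filament, had a fold of 0.27 (limma adjusted p = 0.163). The further probes of Ttn had folds of 0.27, 0.11 and -0.25.

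Fatty acid uptake and oxidation genes had a median fold of 0.15, with 33 of 40 above 0 and 3 not overlapping. Acads, the short-chain acyl-CoA dehydrogenase, was one of them (0.30, limma adjusted p = 0.2). Ucp3, a mitochondrial carrier, had a fold of 0.65 (limma adjusted p = 0.141), while its second probe had one of 1.36. Within slide 2 the list median was 0.02. Glycolysis and glucose oxidation genes had a median of 0.04 (0.03 to 0.08 without 1 array at a time), and 4 of 29 (Pkm, Dlat, Pfkm and Pgk1) were higher without overlap. Oxidative phosphorylation genes had a median of -0.01 over 48 members. Cytosolic ribosome genes had a median of -0.07, with 12 of 46 above 0 and 7 lower without overlap, beside 4.66% of all features. Rps21, with a fold of -0.47 (limma adjusted p = 0.112), was the most distant. Within slide 2 its fold was -0.15 and the median of the ribosome list was -0.08. With each array's 75th percentile subtracted in place of quantile normalization, the median of all features was -0.07, the ribosome median was -0.14 and the fatty acid median was 0.06.

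Stress-response lists lay slightly below 0. Inducible heat shock genes had a median of -0.12 (4 of 20 above 0), which was -0.07 without delta replicate 3 and -0.08 without I183P replicate 3. They were led by Hspb1, a small heat shock protein of muscle, at -0.57 (limma adjusted p = 0.171). Its delta arrays read 17.38, 17.44 and 18.09, and without delta replicate 3 the fold was -0.34. Immediate early genes also had a median of -0.12, with Jund (-0.37, limma adjusted p = 0.116) and Klf4 (-0.38, limma adjusted p = 0.184) among 3 of 25 that did not overlap. The median was -0.01 without delta replicate 3, -0.07 without I183P replicate 3 and -0.35 without delta replicate 2, and Klf4 had a fold of -0.23 without delta replicate 3. Interferon-stimulated genes had a median of -0.12 with 7 of 38 above 0, but -0.30 for I183M and 0.04 for I183P against the same delta arrays, and 0.18 within slide 2.

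Markers of the other cell types of the heart had no member that passed. Fibroblast markers had a median of 0.20 (12 of 15 above 0), which was 0.09 without delta replicate 3, 0.07 with a slide term in the model and 0.19 within slide 2. Pi16, a marker of adventitial fibroblasts, had a fold of 0.73 (SE 0.17, limma adjusted p = 0.117) with groups that did not overlap. Collagen chains had a median of 0.18 (18 of 21 above 0), which was 0.06 without delta replicate 3, 0.31 without delta replicate 1 and 0.35 within slide 2. Smooth muscle and pericyte markers had a median of 0.13 (0.21 without delta replicate 1), with Cnn1, calponin, at 0.61 (limma adjusted p = 0.143). Endothelial (0.03), macrophage (0.0041) and mast cell (0.04) medians ran, without 1 array at a time, from 0.0024 to 0.05, from -0.11 to 0.14 and from -0.07 to 0.15. Within slide 2 these medians were 0.10, 0.25 and 0.00012. Tpsb2, a mast cell tryptase, had a fold of -1.30 (limma adjusted p = 0.117) while its second probe had one of 0.11, and the first had one of -0.86 without delta replicate 2. Lung and thymus markers, which a clean heart sample should lack, had 4 of 9 members tested and a median of -0.19 (-0.12 without delta replicate 1).

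**Figure D5:**
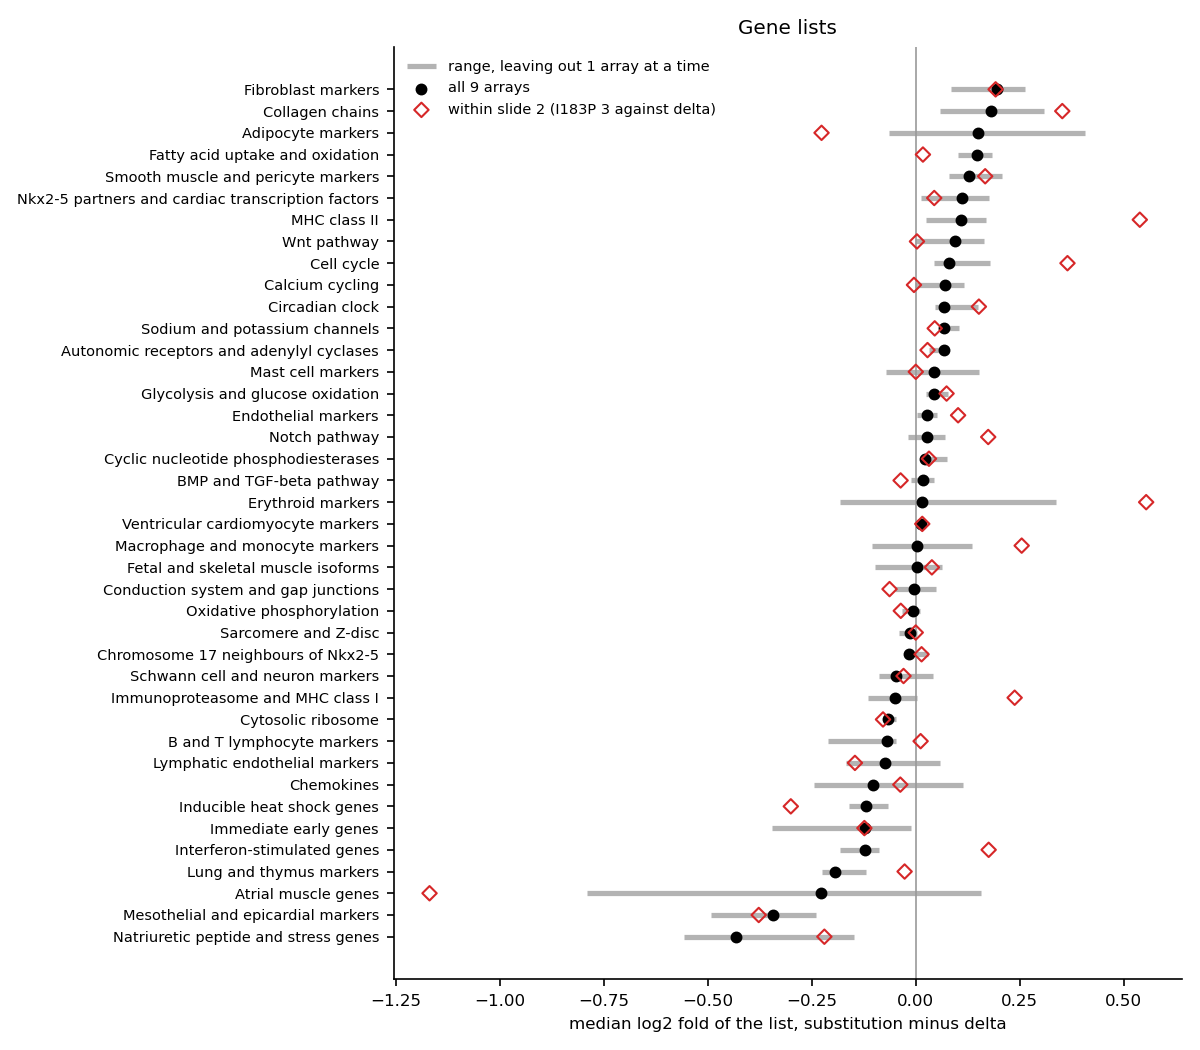
Each row is a gene list, with the median log2 fold of its tested members over all 9 arrays (black), within slide 2 (open diamond) and over fits that leave out 1 array at a time (grey bar). The stress list is lowest at -0.43, the mesothelial list next at -0.34, and the atrial list moves from -0.23 to -1.17 within slide 2.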

How the data were processed

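Total RNA of the heart apex was labelled with Cy3 and hybridised to single-colour Agilent arrays, per the labels' protocols. The deposited files hold linear spot intensity values, read with Feature Extraction 11.0.1.1 and a probe layout on mm9, per the file headers. The submitters' processing notes name Feature Extraction and limma without versions. A table of processed values deposited by the authors lies on a log2 scale by its range, with array medians near 6.93, and correlated at 0.995 (Pearson) with the values used here. Whether its steps were the same is not given in the sources used here, so it was used as an alternative only.

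From the scanner files, the median intensity was corrected with the local background (normexp, offset 50), control spots and spots marked as outliers were left out, and the 9 arrays were quantile normalized and put on a log2 scale. Spots of the same probe were averaged. A probe was kept if it was well above background on 3 or more of the 9 arrays (35461 probes), and the brightest kept probe by mean stood for its gene. Probes were named through their accessions with a RefSeq table of GRCm38.p6, which gave a symbol to 27235 of 55681 probes. No coordinate of that table is given for a probe. Using lmFit and eBayes of limma 3.58.1 (R 4.3.3), the fit tested the contrast over 26179 genes or features (15700 with a symbol), with Benjamini-Hochberg adjustment. The procedure was tested on simulated data.

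Genes named are Nkx2-5, up to 12 symbols in each direction that passed with no overlap and the same sign in both lines, filled to 5, up to 3 members of each list by smallest p, and up to 4 of the 15 genes on each side of Nkx2-5. Of the list members, those with an unadjusted p under 0.025 were followed through the alternatives, a limit added after values were seen. Some list members outside the rule (Msln, Wt1, Myl7, Sln, Myl4 and genes named only as not overlapping) were chosen after their values were seen. Members, lists and tests were all chosen with earlier results of these data known. A list here is 1 of 26 of function, 13 of cell type markers or the neighbours of Nkx2-5. For a probe dim on every array of a group, the fold is a bound: on each array the dim value was raised to the lowest level called well above background where it was under that level.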

Additional observations from a re-analysis of the deposited data

Results flagged for a closer look

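Among the genes named by the rule, 2 had the lines on opposite sides of the delta mean. Every array of one substitution line lay above that mean and every array of the other line below it. Some other members of the gene lists had the same order and are not described. Efr3b, which helps anchor a lipid kinase at the plasma membrane, read 10.68, 10.67 and 10.75 in I183M, 11.56, 11.55 and 11.69 in I183P and 11.29, 11.41 and 11.69 in delta hearts, so that I183P minus I183M was 0.90 (SE 0.11, limma adjusted p = 0.209). Atp8a2, a phospholipid flippase, read 9.27, 9.22 and 9.11 in I183M, 8.42, 8.36 and 8.40 in I183P and 8.27, 8.64 and 8.47 in delta hearts, so that I183P minus I183M was -0.81 (SE 0.11, limma adjusted p = 0.209). In both genes the I183M arrays lay outside the range of the delta arrays, while the I183P arrays overlapped that range. The test of the difference between the lines did not pass for either gene. A second probe of Atp8a2 had a fold of -0.10 for the 2 lines pooled against delta, where the first had one of 0.33. The difference between the lines on the second probe is not given.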

How the results depend on the processing

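Against the 73 features reported (35 higher, 38 lower), the count was 19 with a normexp offset of 16 (12 higher, 7 lower), 8 with the processed signal and quantile normalization (7 and 1), 19 with the processed signal minus each array's 75th percentile (13 and 6), 18 from the authors' deposited table (12 and 6), 5 with all 12 arrays in the fit (4 and 1), 165 with array weights (58 and 107), 132 with an intensity trend and 0 with the slide as a block or within slide 2. It was 62 with medians scaled only, of which 37 were among the 73, and 0 without both I183M replicate 1 and delta replicate 2, with 4200 at an unadjusted p under 0.05; both alternatives were chosen after seeing the data. Without 1 array at a time it ran from 1 to 277. Same-numbered replicates did not deviate together (correlations of -0.505 to 0.116), and with the replicate block 17 passed. For I183P minus I183M the count was 0, against 1524 with array weights, 2 with medians scaled only, 2 without those 2 arrays and 0 to 2 without 1 array at a time. The cause of these shifts was not tested. With 1 array left out no group had fewer than 2 arrays, and within slide 2 the lone I183P array is assumed to vary like the delta arrays.

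The fold of Nkx2-5 kept its sign in all 23 alternatives (0.76 to 0.87) and missed the threshold in 6: 0.7957 with the slide as a block (limma adjusted p = 0.217), 0.7953 within slide 2, 0.8448 with the replicate block (limma adjusted p = 0.0642), 0.8685 without delta replicate 3, 0.861 without those 2 arrays (limma adjusted p = 0.0512) and 0.78 with medians scaled only (limma adjusted p = 0.141). Without 1 array at a time it ran from 0.81 to 0.87. Signs turned for Fabp4 (-0.06451) and Cx3cr1 (0.09794) with the slide as a block, and for Cx3cr1 (0.844), Efr3b (0.2251) and Atp8a2 (-0.06179) within slide 2. The fold of Emilin3 ran from 0.88 to 2.47 over the alternatives and that of Olfr681 from 0.66 to 2.14.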

Other observations

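Several genes outside the descriptions above differed in value without passing the test. Cx3cr1, the fractalkine receptor of resident macrophages, read 8.48, 8.16 and 8.35 in I183M, 10.15, 9.49 and 10.36 in I183P and 9.65, 9.46 and 9.43 in delta hearts. I183P minus I183M was 1.67 (SE 0.20, limma adjusted p = 0.209), and the pooled lines had a fold of -0.35 over delta (limma adjusted p = 0.396), or between -0.43 and -0.22 without 1 array at a time. Per1, a light- and glucocorticoid-responsive clock gene, had a fold of 0.81 (limma adjusted p = 0.256), with I183P replicate 1 at 11.93 and the other 5 substitution arrays at 13.05 to 13.62. The median of 19 circadian clock genes was 0.07, and 0.15 without delta replicate 1.

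Adra1b, an alpha-1 adrenergic receptor, had a fold of 0.52 (limma adjusted p = 0.136) with groups that did not overlap, and its second probe had one of -0.12. Notch pathway genes had a median of 0.03 (-0.02 to 0.07 without 1 array at a time), with Hey2, a ventricular transcription factor downstream of Notch, at 0.34 (limma adjusted p = 0.23) and Heyl at -0.31 (limma adjusted p = 0.245). Gbp6, an interferon-induced GTPase, had a fold of -1.03 (limma adjusted p = 0.181), which was -0.59 without delta replicate 2, the array that read 12.24. Its second probe had a fold of -0.21. Erythroid markers had a median of 0.02 over all 9 arrays and 0.55 within slide 2, and MHC class II genes one of 0.11 and 0.54. Without 1 array at a time these medians ran from -0.18 to 0.34 and from 0.02 to 0.17.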
